A study of Mus musculus with 6 samples.

Results

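Ribosome biogenesis factors are the proteins that transcribe, modify, cut and assemble ribosomal RNA into ribosomes, and Myc is a transcription factor that drives many of their genes. The set described here was a fixed list of 37 genes, Myc and 36 such factors, out of 32285 genes in the deposited tables. The list was not chosen by a threshold, but it was drawn up with earlier results of these data known. All 37 genes were present in all 6 tables, and all 37 passed the filter on low values of every fit.

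The cells came from organoids of esophageal epithelium of C57BL6 mice. Basal cells positive for integrin-b1 and negative for DAPI, which stains dead cells, were sorted with Cyto-ID, which stains autophagic vesicles, into a Cyto-ID Low and a Cyto-ID High population, written Low and High from here on. Both populations were seeded in Matrigel in the same medium with EGF, Noggin, R-Spondin and the kinase inhibitor Y27632, and organoids were dissociated after 15 days, depleted of dead cells and made into droplet 3′ libraries. Each group had 3 libraries, labelled F2, M3 and F6 in both groups, and values are given in that order. The sort therefore describes the founder cells, and the sequenced cells are their descendants in culture, with none of the other cell types of the tissue seeded on purpose. The labels do not say that the 3 libraries of a group came from separate animals, so p-values measure the spread between these libraries, which may be technical.

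Cells with at least 500 detected genes were split into layers by the deposited value of Krt13, a keratin that esophageal cells switch on when they leave the basal layer. A value of 3 or more, which equals 19.1 or more Krt13 unique molecular identifiers (UMIs) per 10000, was called suprabasal, and a lower value basal. This is a range of 1 gene and not a cell type, and 3427 of 25154 kept cells (13.6%) lay within 0.5 of the boundary. The basal layer held 15202 cells and the suprabasal layer 9952. The layers matched their markers. Col17a1, a hemidesmosome collagen of basal cells, ranged over libraries from 344 to 764 CPM (UMIs scaled to 1000000 per cell, averaged over cells) in basal and 63.5 to 144 CPM in suprabasal cells, and Krt4, the partner keratin of Krt13, from 24.00 to 57.4 and 910.4 to 1977 CPM. Of 8 basal markers 6 were lower in the suprabasal layer and 2, Krt5 and Krt14, were higher after scaling, although the mean unscaled level of Krt14 was lower in both groups. Of the 9 suprabasal markers other than Krt13, which set the split, 9 were higher. Markers of immune, fibroblast and endothelial cells were at or under 2.97 CPM in all 12 library-by-layer means, with Ptprc, Col3a1 and Cdh5 at 0, except Cd68, which was at 5.79 to 31.7 CPM.

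Libraries held between 8457489 and 48957523 UMIs, and kept cells held 431572 UMIs of the 37 genes in all. Pairs of libraries shared between 0 and 10 cell barcodes. The median cell held 7204, 5221 and 2331 UMIs in Low and 9645, 2015 and 1861 UMIs in High basal cells. In suprabasal cells these medians were 9489, 7459.5 and 3603 and 11416, 2936 and 2153, higher than in basal cells of the same library in 6 of 6 libraries. Mitochondrial UMIs made up 2.19 to 3.04% of basal and 1.32 to 2.23% of suprabasal means.

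A ribosome is built in the nucleolus, where RNA polymerase I transcribes a long precursor of the ribosomal RNAs. Small nucleolar ribonucleoproteins (snoRNPs) of the box C/D class methylate this RNA and those of the box H/ACA class convert uridines to pseudouridine, while processing factors cut it and fold it with ribosomal proteins into a small and a large subunit. In stratified epithelia such as the esophagus, division and growth are concentrated in the basal layer, and cells that move up stop dividing and fill with keratins and barrier proteins.

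Myc and its partner Max bind the E-box CACGTG, so the promoters of the members were searched for it. RefSeq promoter windows (GRCm38.p6, the build family named in the submitters' processing notes) from 250 bases before to 50 bases after each annotated start were matched by symbol for 31 of 37 members, all but Myc, Fbl, Npm1, Rrp12, Rrs1 and Bop1. The motif reads the same on both strands. It was in the window of 6 of the 31 members (19.4%), against 11.8% of the 9513 tested genes with a window and 7.15% of all 32851 windows of that length. A match is a description of letters and not a shown binding site. Only Nop2, a methyltransferase of ribosomal RNA, had it before the start, with the first base of the motif 60 bases upstream. Its 250 upstream bases (chr6:125131633-125131882, + strand) are shown with the motif in capitals.
Nop2: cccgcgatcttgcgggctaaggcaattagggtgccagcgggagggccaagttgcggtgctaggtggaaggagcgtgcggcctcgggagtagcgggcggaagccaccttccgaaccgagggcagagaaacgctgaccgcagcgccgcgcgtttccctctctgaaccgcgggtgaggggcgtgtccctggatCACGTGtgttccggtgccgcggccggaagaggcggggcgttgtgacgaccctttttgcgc

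In the other members with the motif it lay within the first transcribed bases. The 30 bases around it are shown for Wdr43 (chr17:71616220-71616249, + strand), Mybbp1a (chr11:72441347-72441376, + strand), Tsr1 (chr11:74898092-74898121, + strand), Pes1 (chr11:3963965-3963994, + strand) and Nle1 (chr11:82908355-82908384, - strand), each read 5′ to 3′ on the gene's strand with the motif in capitals.
Wdr43: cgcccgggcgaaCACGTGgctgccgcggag
Mybbp1a: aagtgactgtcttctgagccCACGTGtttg
Tsr1: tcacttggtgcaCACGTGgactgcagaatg
Pes1: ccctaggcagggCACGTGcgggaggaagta
Nle1: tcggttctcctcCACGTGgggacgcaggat

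The box H/ACA genes Nhp2 (chr11:51619523-51619772, + strand) and Nop10 (chr2:112261676-112261925, + strand) are shown because their layer difference, described next, had the opposite sign to that of most members. Their 250 upstream bases held no CACGTG, which was so for every member with a window except Nop2.
Nhp2: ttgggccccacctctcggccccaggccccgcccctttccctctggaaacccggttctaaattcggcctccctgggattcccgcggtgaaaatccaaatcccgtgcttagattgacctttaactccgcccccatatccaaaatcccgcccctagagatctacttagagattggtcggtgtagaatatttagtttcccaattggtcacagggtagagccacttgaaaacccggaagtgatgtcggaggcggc
Nop10: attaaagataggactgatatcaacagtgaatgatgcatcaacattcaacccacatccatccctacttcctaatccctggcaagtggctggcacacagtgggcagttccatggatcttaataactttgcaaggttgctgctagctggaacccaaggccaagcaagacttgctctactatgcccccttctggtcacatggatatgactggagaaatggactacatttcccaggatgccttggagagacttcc

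The first comparison asked how the members differ between the layers of the same library. Together the 37 genes made up 0.349% ± 0.0164 of UMIs in Low and 0.365% ± 0.0108 in High basal cells (SD, n = 3), and 0.165% ± 0.0377 and 0.218% ± 0.00378 in suprabasal cells. The summed level in suprabasal cells was 43.00, 56.97 and 40.8% of the basal level in the Low libraries and 60.8, 59.2 and 59.1% in the High libraries. It was lower in 6 of 6 libraries. The mean number of member UMIs per cell was also lower in suprabasal cells in every library, at 56.8 to 81.2% of the basal number. Npm1 alone gave 34.9 to 55.4% of the summed level, so single genes were tested.

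In the fit with each library as its own pair, 30 of 37 members were lower in suprabasal cells, 2 were higher and 5 passed in neither direction (limma on log2(CPM + 1) of library means, Benjamini-Hochberg over 12138 genes, adjusted p under 0.05). The background was wide, because 28.5% of all tested genes were called lower and 31.3% higher, 59.8% in all. The median log2 difference was -0.56 over the members and -0.0015 over all genes. With the replicate label as the block in place of the library, 21 members were lower and 0 higher, beside 21.3% and 22.7% of all genes. That fit does not pair the layers of each library. The main fit does, but it counts same-labelled Low and High libraries as separate pairs, although they may share a source. In 28 members the difference was negative in each of the 6 libraries, against 25.7% of all genes. The scaling matters for these numbers. CPM divided by factors from the trimmed mean of M values (TMM) place the median gene near 0, whereas on plain CPM the median of all genes was -0.37 and that of the members -0.96, with 34 members lower and 0 higher. On plain CPM, 6960 genes were lower and 1821 higher, against 3464 and 3797 after TMM scaling. Differences below are relative to the median gene, after TMM scaling, and levels are unscaled CPM.

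**Figure D1:**
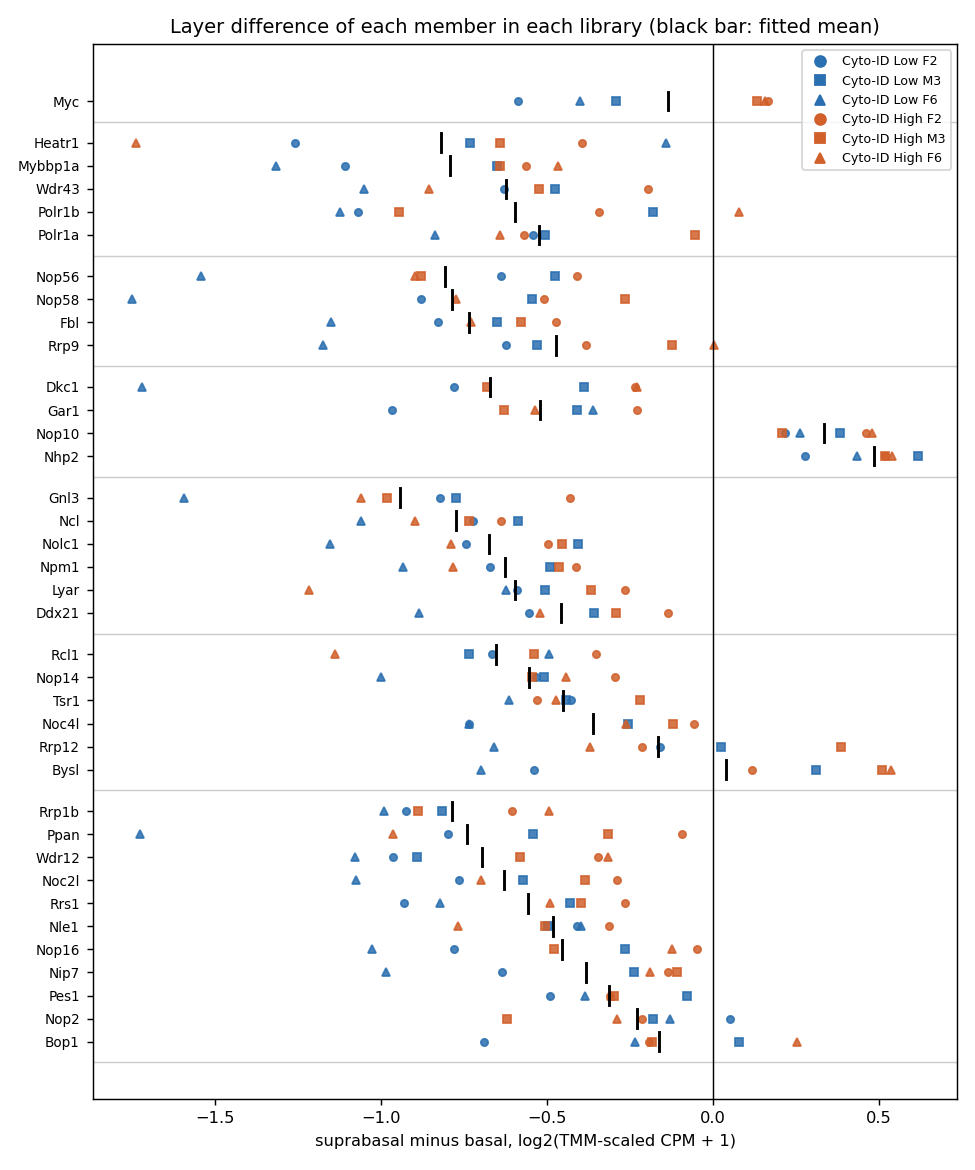
Difference between suprabasal and basal cells on the log2(TMM-scaled CPM + 1) scale (horizontal axis) for each of the 37 members, grouped by role, with 1 point per library and a black bar at the fitted mean. Most points lie left of 0, those of Nhp2 and Nop10 lie right of it in all 6 libraries, and for Myc the Low and High libraries fall on opposite sides of 0.

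Myc itself did not pass in the layer comparison. It stood at 24.5, 19.8 and 17.6 CPM in Low and 29.3, 19.7 and 17.4 CPM in High basal cells, and at 10.5, 11.96 and 9.41 CPM and 24.99, 16.4 and 16.2 CPM in the suprabasal cells of the same libraries. On these unscaled levels it was lower in suprabasal cells in 6 of 6 libraries, with smaller drops in the High than in the Low libraries. After scaling, the log2 difference was -0.59, -0.29 and -0.40 in the Low and 0.17, 0.13 and 0.16 in the High libraries, and over all 6 it was -0.14 ± 0.12 (SE), with a limma adjusted p of 0.34. On plain CPM the overall difference was -0.54 (limma adjusted p = 0.0025). These levels rest on 160, 197 and 38 Myc UMIs in Low and 387, 112 and 50 in High suprabasal cells.

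All 5 members tied to RNA polymerase I and transcription of the precursor were lower in suprabasal cells, with log2 differences from -0.82 to -0.53. Mybbp1a, a nucleolar protein bound to the ribosomal DNA repeats, stood at 47.7, 45.5 and 59.3 CPM in Low and 49.7, 50.8 and 58.9 CPM in High basal cells, and at 14.2, 21.4 and 16.7 CPM and 25.1, 24.3 and 35.05 CPM in the suprabasal cells of the same libraries. On unscaled CPM the layers did not overlap, but after TMM scaling they did. The log2 difference was -0.79 ± 0.11 (SE) (limma adjusted p = 5.1e-05). Heatr1, a factor that joins transcription of the precursor to its first processing, was scarcer, at 8.05, 8.32 and 7.18 CPM in Low and 9.29, 11.5 and 12.01 CPM in High basal cells, and at 1.74, 3.39 and 4.60 CPM and 5.11, 5.30 and 2.39 CPM in the suprabasal cells of the same libraries. Its difference was -0.82 ± 0.19 (SE) (limma adjusted p = 0.0023). Polr1a and Polr1b encode the catalytic core of the polymerase and fell by 0.53 and 0.60 on the log2 scale (limma adjusted p = 0.0029 and 0.012), and Wdr43 by 0.62 (2.4e-04). Polr1b did not fall in High F6 (0.077), and it rests on 5 UMIs in Low F6 and 10 in High F6 suprabasal cells.

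The 4 box C/D genes also fell. Fbl, the methyltransferase fibrillarin, stood at 54.1, 80.8 and 68.3 CPM in Low and 71.4, 125 and 66.3 CPM in High basal cells, and at 19.8, 38.4 and 21.7 CPM and 38.6, 63.02 and 32.8 CPM in the suprabasal cells of the same libraries. High M3 was the highest library in both layers, and every library fell, with a difference of -0.73 ± 0.086 (SE) (limma adjusted p = 1.2e-05). Nop56, a core scaffold protein of these particles, stood at 53.4, 50.7 and 45.1 CPM in Low and 66.02, 59.2 and 61.9 CPM in High basal cells, and at 22.4, 27.1 and 10.6 CPM and 37.3, 23.9 and 27.2 CPM in the suprabasal cells of the same libraries. No unscaled suprabasal value reached the lowest basal value, but after TMM scaling the layers overlapped. The difference was -0.81 ± 0.13 (SE) (limma adjusted p = 1.3e-04). Nop58, its paralog, fell by 0.79 and Rrp9, a protein of the particle that guides the first cuts, by 0.47 on the log2 scale (limma adjusted p = 6.1e-04 and 0.015). Rrp9 did not fall in High F6 (0.0044).

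The box H/ACA genes split. Dkc1, the pseudouridine synthase dyskerin, and Gar1, which binds it, fell, while the small core proteins Nhp2 and Nop10 were higher after scaling. Dkc1 stood at 24.6, 26.1 and 21.4 CPM in Low and 27.9, 38.4 and 23.8 CPM in High basal cells, and at 9.13, 14.8 and 4.09 CPM and 17.8, 17.8 and 16.7 CPM in the suprabasal cells of the same libraries. Low F6 was the lowest library in both layers, and the difference was -0.67 ± 0.17 (SE) (limma adjusted p = 0.0038), or 0.059 when the replicate label replaced the library as the block. Gar1 fell by 0.52 (limma adjusted p = 5.4e-04). Nhp2 stood at 115, 152 and 139 CPM in Low and 152, 304 and 200.4 CPM in High basal cells, and at 92.1, 175 and 135 CPM and 164, 329.5 and 242 CPM in the suprabasal cells of the same libraries. The High M3 library was highest, and after scaling Nhp2 was higher in suprabasal cells in 6 of 6 libraries, by 0.48 ± 0.058 (SE) (limma adjusted p = 1.4e-05). Nop10 stood at 111, 99.3 and 124 CPM in Low and 149, 137 and 317 CPM in High basal cells, and at 85.4, 97.6 and 107 CPM and 155, 119 and 366 CPM in the suprabasal cells of the same libraries, with High F6 far above the other libraries in both layers. Its scaled difference was 0.33 ± 0.059 (SE) (limma adjusted p = 3.6e-04). With the replicate label as the block neither passed (limma adjusted p = 0.14 for Nhp2 and 0.4 for Nop10), nor did Nop10 when Krt4 in place of Krt13 split the layers (0.12). Both directions also depend on the scaling, since on plain CPM the differences were 0.060 for Nhp2 and -0.089 for Nop10, neither past the threshold. The unscaled share of these genes was thus near level between layers, and that of Dkc1 and Gar1 was not.

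All 6 abundant nucleolar proteins fell. Npm1, the histone chaperone nucleophosmin, was the most abundant member and stood at 1954, 2003 and 1775 CPM in Low and 1774, 1753 and 1568 CPM in High basal cells, and at 811, 1070.2 and 668 CPM and 1006, 959 and 755 CPM in the suprabasal cells of the same libraries. The layers did not overlap, and the difference was -0.63 ± 0.069 (SE) (limma adjusted p = 6.9e-06). Mouse Npm1 has many processed pseudogenes, and how shared reads were counted is not given in the sources used here, so its level is uncertain. Gnl3, the GTPase nucleostemin, had the most negative difference of all members. It stood at 44.6, 46.8 and 39.02 CPM in Low and 52.7, 41.98 and 50.8 CPM in High basal cells, and at 16.3, 20.2 and 8.76 CPM and 29.3, 15.7 and 19.7 CPM in the suprabasal cells of the same libraries, and fell by 0.94 ± 0.12 (SE; limma adjusted p = 2.7e-05). Ncl, the RNA-binding protein nucleolin, fell by 0.77, the snoRNP chaperone Nolc1 by 0.67, Lyar by 0.60 and the helicase Ddx21 by 0.46 on the log2 scale, with limma adjusted p values of 6.0e-07, 1.1e-04, 4.8e-04 and 9.8e-04.

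Of the 6 members for small-subunit processing, 4 fell and 2 did not pass. Nop14, part of the large processing complex of the small subunit, stood at 24.9, 30.3 and 24.9 CPM in Low and 25.1, 24.7 and 25.5 CPM in High basal cells, and at 11.2, 15.7 and 8.54 CPM and 15.2, 12.5 and 15.3 CPM in the suprabasal cells of the same libraries. Its layers did not overlap, with a difference of -0.55 ± 0.10 (SE) (limma adjusted p = 4.3e-04). Rcl1 had the most negative difference of these genes, -0.66 ± 0.12 (SE) (limma adjusted p = 6.3e-04), and stood at 8.83, 12.01 and 7.88 CPM in Low and 11.04, 16.02 and 15.3 CPM in High basal cells, and at 3.37, 5.05 and 3.79 CPM and 6.32, 8.07 and 5.30 CPM in the suprabasal cells of the same libraries. Tsr1 and Noc4l fell by 0.45 and 0.36 (limma adjusted p = 0.002 and 0.02). Bysl, the assembly factor bystin, stood at 11.8, 11.3 and 13.3 CPM in Low and 12.7, 13.7 and 8.35 CPM in High basal cells, and at 5.12, 10.8 and 5.59 CPM and 10.5, 15.1 and 10.4 CPM in the suprabasal cells of the same libraries. After scaling its difference was negative in Low F2 and F6 and positive in the other 4 libraries, and over all 6 it was 0.039 ± 0.17 (SE) (limma adjusted p = 0.85). Rrp12 was the scarcest member, at 2.46, 2.30 and 2.02 CPM in Low and 3.24, 3.63 and 6.30 CPM in High basal cells, and at 1.37, 1.77 and 0.616 CPM and 1.98, 3.83 and 3.85 CPM in the suprabasal cells of the same libraries. It rests on few UMIs, 24, 37 and 3 in Low suprabasal cells, and its difference was -0.17 ± 0.16 (SE) (limma adjusted p = 0.39).

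Of the 11 members for the large subunit, 9 fell and 2 did not pass. Noc2l, an export factor of the early large subunit, stood at 43.3, 53.3 and 45.8 CPM in Low and 40.5, 51.1 and 43.3 CPM in High basal cells, and at 16.5, 26.6 and 15.2 CPM and 24.9, 29.4 and 21.8 CPM in the suprabasal cells of the same libraries. Its layers did not overlap on unscaled CPM but did after TMM scaling. The difference was -0.63 ± 0.10 (SE) (limma adjusted p = 1.5e-04). Rrp1b fell most among them, by 0.79 ± 0.12 (SE; limma adjusted p = 8.3e-05), and stood at 10.99, 13.2 and 8.84 CPM in Low and 11.3, 16.4 and 9.51 CPM in High basal cells, and at 3.44, 5.23 and 2.78 CPM and 5.29, 6.33 and 5.35 CPM in the suprabasal cells of the same libraries. The 3 proteins of the PeBoW complex, which is needed to cut the precursor of the large subunit, differed in size of change. Wdr12 fell by 0.70 and Pes1 by 0.31 (limma adjusted p = 4.4e-04 and 0.006), while Bop1 did not pass, with -0.16 ± 0.12 (SE) (limma adjusted p = 0.26). Bop1 stood at 12.4, 17.4 and 13.7 CPM in Low and 18.8, 27.8 and 16.05 CPM in High basal cells, and at 4.78, 13.9 and 8.25 CPM and 12.3, 18.4 and 16.00 CPM in the suprabasal cells of the same libraries. Nop2, whose promoter is printed above, stood at 7.35, 9.02 and 7.95 CPM in Low and 9.67, 12.8 and 11.8 CPM in High basal cells, and at 5.08, 5.87 and 5.17 CPM and 6.16, 6.02 and 7.85 CPM in the suprabasal cells of the same libraries, and its difference of -0.23 ± 0.12 (SE) did not pass (limma adjusted p = 0.11). Both Bop1 and Nop2 were lower on plain CPM, by 0.56 and 0.60, past the threshold. Ppan, Rrs1, Nle1, Nop16 and Nip7 fell by 0.74, 0.56, 0.48, 0.45 and 0.38 on the log2 scale, with limma adjusted p values between 5.1e-04 and 0.014.

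**Figure D2:**
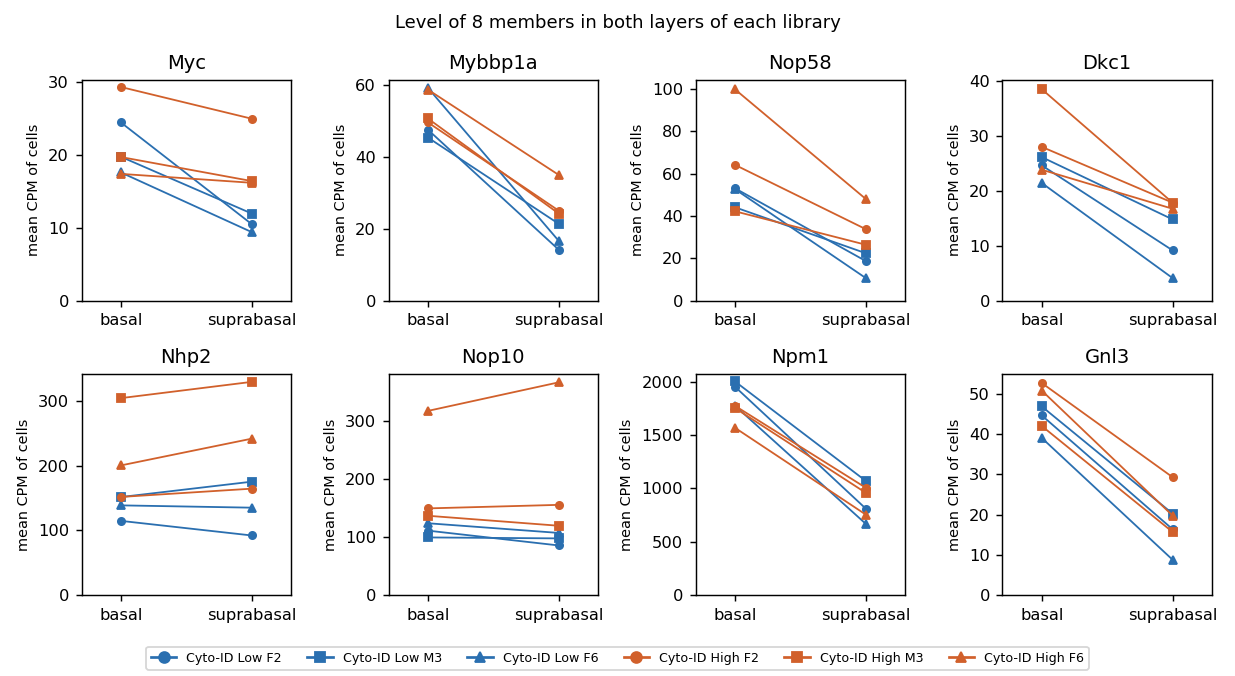
Mean CPM of cells (vertical axes, from 0) of 8 members in basal and suprabasal cells, with 1 line per library, Low in blue and High in orange. Mybbp1a, Nop58, Dkc1, Npm1 and Gnl3 drop in every library, Nhp2 and Nop10 run nearly level, and Myc drops steeply only in the blue lines.

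The fall was also followed along 6 grades of Krt13, on unscaled CPM. The summed level of the members ranged over the 6 libraries from 3359 to 3750.3 CPM in cells with no Krt13 and from 3466 to 3879 CPM at a value above 0 and below 2. Just under the layer boundary, at 2 to below 3, it was 3033 to 3746 CPM. Just above it, at 3 to below 4, it was 1799 to 2782 CPM, which does not overlap with the grade before. It was 1287 to 2195 CPM at 4 to below 5 and 854 to 1976 CPM at 5 and more. The level was thus near constant up to a Krt13 of 2 and stepped down from there, but less so in M3. At 2 to below 3 it was 3467 CPM in Low M3 and 3746 CPM in High M3. With no Krt13 these libraries were at 3597 and 3701 CPM. The High F2 library, with 168 cells in the highest grade, did not fall further there. The lowest grades also differ in depth. Cells above 0 and below 2 were deeper than cells with no Krt13 in every library, with medians of 2296.5 and 1790 UMIs in High F6.

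Myc was read by group along the same grades. At 0 it was 19.1 ± 6.51 CPM in Low and 22.5 ± 5.22 CPM in High (SD, n = 3). At 3 to below 4 the values were 12.3 ± 3.16 and 19.2 ± 4.41 CPM, and at 5 and more 8.09 ± 2.11 and 19.3 ± 9.08 CPM. The High libraries did not share a course, at 27.1, 23.6 and 16.8 CPM with no Krt13 and 29.5, 16.6 and 11.9 CPM at 5 and more, where F2 was the highest. The groups overlapped in the 3 grades under the boundary and did not overlap in the 3 grades above it.

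**Figure D3:**
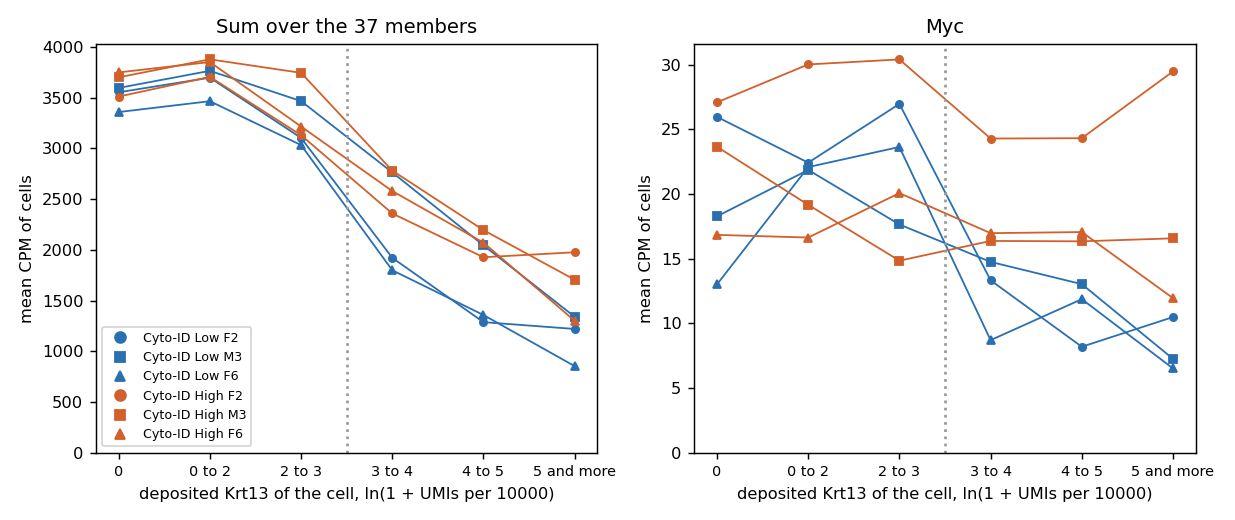
Mean CPM of cells (vertical axes, from 0) summed over the 37 members (left) and of Myc (right) in 6 grades of the deposited Krt13 value (horizontal axes, natural log scale), 1 line per library, with the layer boundary dotted. The sum steps down from the grade 2 to 3 onward, except that High F2 is level between the last grades, and above the boundary the 3 High lines of Myc lie above the 3 Low lines.

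Other genes of the pathway, from lists without the members, were read the same way, beside the background of 28.5% lower and 31.3% higher. Of 42 further small-subunit factors 25 fell and 1 rose, with a median of -0.29. The most negative were Wdr75 (-0.71 ± 0.14) and Wdr3 (-0.66 ± 0.12, log2 ± SE). Of 48 large-subunit factors 30 fell and 3 rose (median -0.38), led by Rrp15 (-0.90 ± 0.16) and Sdad1 (-0.88 ± 0.13). Of 20 genes of snoRNP assembly and the RNA exosome 15 fell and 0 rose (median -0.46), led by the exosome subunit Exosc8 (-1.07 ± 0.11) and the ATPase Ruvbl1 (-1.02 ± 0.13). Of 19 further subunits and factors of RNA polymerase I 8 fell and 3 rose (median -0.17). Tcof1, the nucleolar protein treacle, fell from 18.5 to 3.10 CPM in Low and from 17.3 to 6.13 CPM in High (-1.40 ± 0.17), and the polymerase subunit Polr1c fell by 0.69.

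Cytosolic ribosomal protein genes, the building blocks themselves, did not share the fall relative to the median gene. Of 80 tested, 6 were lower and 5 higher, with a median of -0.0063. In the Myc network other than Myc itself 4 of 10 genes fell and 5 rose. Mxd1, which competes with Myc for Max, rose from 56.2 to 288 CPM in Low and from 53.7 to 205 CPM in High (2.55 ± 0.093, limma adjusted p = 3.6e-10), and the Myc relative Mycl rose from 12.9 to 20.7 CPM in Low and from 10.8 to 16.8 CPM in High (1.06 ± 0.10). Of 20 other textbook Myc targets 11 fell and 3 rose, led by the cyclin Ccnd2 (-1.06 ± 0.074) and Cad, an enzyme of pyrimidine synthesis (-0.83 ± 0.17). All 20 of 20 cell-cycle genes fell (median -1.48), led by the helicase subunit Mcm3 (-1.92 ± 0.14) and Stmn1 (-1.88 ± 0.089).

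Cell-cycle activity moves with the layers, so cells were also split by it. After each cell was thinned to 1000 UMIs, a cell with 2 or more UMIs from the 20 cell-cycle genes was called cycling, and shallower cells were left out. In basal cells 9.42 to 26.2% were cycling and in suprabasal cells 1.83 to 6.27%. The summed member level was 3747 to 4514 CPM in cycling and 3263 to 3584 CPM in other basal cells. In suprabasal cells it was 3051 to 3938 CPM in cycling and 1308 to 2115 CPM in other cells. The few cycling suprabasal cells, 21 to 140 per library, were higher than non-cycling basal cells in 4 of 6 libraries. They were lower than cycling basal cells of the same library in every library. Doublets of a basal and a suprabasal cell were not removed, and their part in this was not tested. With the cells called cycling left out, 29 members were lower in the suprabasal layer and 2 higher, beside 26.7% and 30.2% of all genes. The median of the members was -0.54, and -0.56 with all cells. A dividing cell with fewer than 2 cell-cycle UMIs is not called cycling and stays in. The part of cell division in the layer difference was not tested.

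**Figure D4:**
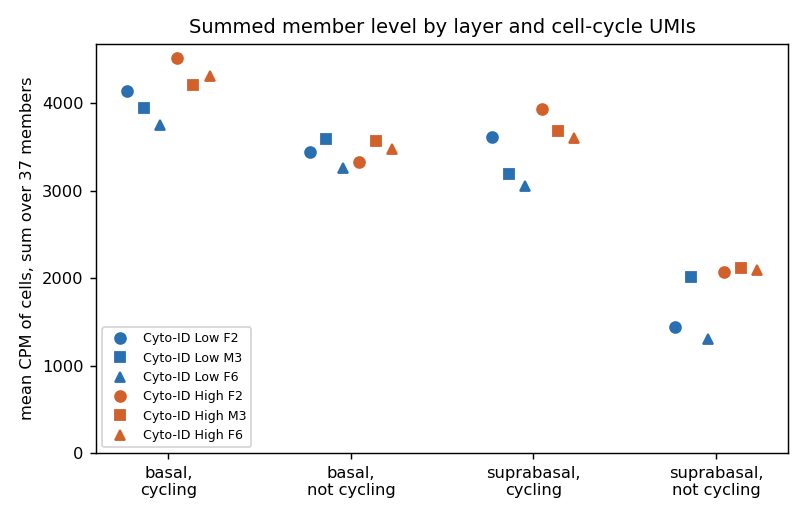
Mean CPM of cells summed over the 37 members (vertical axis, from 0) in cycling and other cells of both layers, 1 point per library. Cycling cells lie above the others in each layer of all 6 libraries, and the non-cycling suprabasal cells lie below the other sets of cells.

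The second comparison was High against Low within the basal layer. No member passed (limma, Benjamini-Hochberg over 11730 genes), and 9 had an unadjusted p under 0.05. Over all genes 0.23% were called and 7.09% had an unadjusted p under 0.05. The estimate was above 0 in 36 of 37 members, all but Npm1, with a median log2 difference of 0.30 against -0.0020 over all genes. On plain CPM 30 were above 0, the median was 0.15 and 2 had an unadjusted p under 0.05, beside 7.79% of all genes. On TMM-scaled CPM the groups did not overlap, with High higher, in 11 members (29.7%), where 6.62% of all genes did so, and lower in 0, against 6.46% of all genes. On unscaled CPM, a setting added after these values were seen, 7 members did not overlap with High higher (all genes 4.24%) and 1, Npm1, with High lower (9.78%). The members with the smallest p were Rrp12, Tsr1 and Nop56. Rrp12 was at 2.26 ± 0.222 CPM in Low and 4.39 ± 1.67 CPM in High, and Tsr1, a factor of late small-subunit assembly, at 12.3 ± 1.51 and 16.01 ± 1.16 CPM (SD, n = 3). The libraries ran at 12.5, 13.6 and 10.7 against 17.03, 14.7 and 16.3 CPM for Tsr1. Nop56, whose libraries are given above, was at 49.7 ± 4.22 and 62.4 ± 3.44 CPM. The log2 differences were 0.81 ± 0.29 (SE), 0.51 ± 0.19 (SE) and 0.47 ± 0.18 (SE), with limma adjusted p values of 0.63, 0.65 and 0.65. Myc did not differ past the threshold (0.22 ± 0.21 (SE), limma adjusted p = 0.85).

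In basal cells the cycling share was 13.3, 16.9 and 9.42% in Low and 17.96, 26.2 and 23.8% in High, which did not overlap. Without cycling cells the median of the members was 0.28 and 4 had an unadjusted p under 0.05, beside 5.33% of all genes. With all cells, 14 members did so when the replicate label was the block, beside 14.1% of all genes, where 0 passed and the smallest limma adjusted p was 0.16. With all cells the count was 0 without Low F6 (all genes 4.24%), 1 without Low F2 (4.21%), 1 without High F6 (3.39%) and 5 without High M3 (14.2%). It was 6 without Low M3 (7.42%) and 9 without High F2 (8.92%).

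Within the suprabasal layer the members were higher in High in direction, and again no member passed the threshold. The summed level was 1516, 2072 and 1352 CPM in Low and 2150.2, 2222 and 2164 CPM in High. The groups did not overlap, but Low M3 lay close to the High libraries. The estimate was above 0 in 37 of 37 members, with a median log2 difference of 0.59 against -0.027 over all genes, and 17 members had an unadjusted p under 0.05 (limma; adjusted p between 0.45 and 0.91). Over all 11141 genes 0.206% were called and 7.53% had an unadjusted p this low. On TMM-scaled CPM the groups did not overlap, with High higher, in 17 members (45.9%), against 6.01% of all genes, and lower in 0, against 6.57%. On unscaled CPM these numbers were 14 members, against 5.26%, and 0, against 6.61%. The count of unadjusted p under 0.05 was 4 without Low F2 (all genes 3.83%), 4 without Low F6 (3.63%) and 6 without High M3 (11.6%). It was 12 without High F6 (4.24%), 15 without High F2 (9.31%), 21 without Low M3 (10.7%) and 13 on plain CPM (6.93%). With the replicate label as a block it was 24 (beside 17.00% of all genes), where the smallest limma adjusted p was 0.083.

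The members with the smallest p here were Nop58, Myc and Dkc1. Nop58 was at 18.7, 22.4 and 10.7 CPM in Low and 33.8, 26.4 and 48.04 CPM in High libraries, with means of 17.3 ± 5.99 and 36.1 ± 11.00 CPM (SD, n = 3). High F6 was highest, and the groups did not overlap. Its log2 difference was 1.07 ± 0.31 (SE) (limma adjusted p = 0.45). Myc, whose libraries are given above, had means of 10.6 ± 1.28 and 19.2 ± 5.01 CPM (SD, n = 3), a log2 difference of 0.80 ± 0.23 (SE) (limma adjusted p = 0.46). Dkc1 had means of 9.33 ± 5.34 and 17.4 ± 0.633 CPM (SD, n = 3), a difference of 1.01 ± 0.35 (SE) (limma adjusted p = 0.62). The groups did not overlap for either gene. Nhp2 and Nop10 were higher in High by 0.89 and 1.00 in suprabasal and by 0.80 and 0.90 in basal cells, not past the threshold in either layer. Npm1 had the smallest difference, 0.14 ± 0.29 (SE).

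Other values moved with this comparison. All 80 of 80 ribosomal protein genes also had an estimate above 0 in suprabasal cells, with a median of 0.42, as had 78 of 80 in basal cells, with a median of 0.33, and with limma 0 passed in either layer, 0 having an unadjusted p under 0.05 in basal and 0 in suprabasal cells. The cycling share of suprabasal cells was 2.84, 4.36 and 1.83% in Low and 4.50, 6.27 and 4.74% in High. Without the cells called cycling the median of the members was 0.59, as it was with all cells. Krt13 itself overlapped between the groups in suprabasal cells, at 9083, 12104 and 11240.5 CPM and 7910.2, 12635 and 8861 CPM. With libraries matched by label, High was below Low in F2 and F6 and above it in M3. Among the suprabasal markers other than Krt13, 2 of 9 were higher in High suprabasal cells and 0 lower. Krtdap, a protein secreted by differentiating keratinocytes, was at 168, 114 and 56.4 CPM in Low and 1678, 1244 and 2851 CPM in High, a log2 difference of 4.16 ± 0.43 (SE; limma adjusted p = 0.0047). Sbsn was at 23.3, 26.01 and 17.2 CPM in Low and 87.3, 113 and 114 CPM in High, a log2 difference of 2.23 ± 0.25 (SE; limma adjusted p = 0.0084). The groups did not overlap for either marker. Krtdap was also higher in High basal cells, by 5.06 ± 0.59 (SE; limma adjusted p = 0.011). Ivl, the envelope protein involucrin, was at 101, 32.5 and 45.9 CPM in Low and 50.4, 17.5 and 9.25 CPM in High, a difference of -1.32 ± 0.55 (SE; limma adjusted p = 0.64). The part of these markers in the members' differences was not tested. When layers were split by a deposited Krt4 of 2 or more instead, the median difference in the suprabasal layer was 1.15, still with 0 members past the threshold (smallest limma adjusted p = 0.093).

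**Figure D5:**
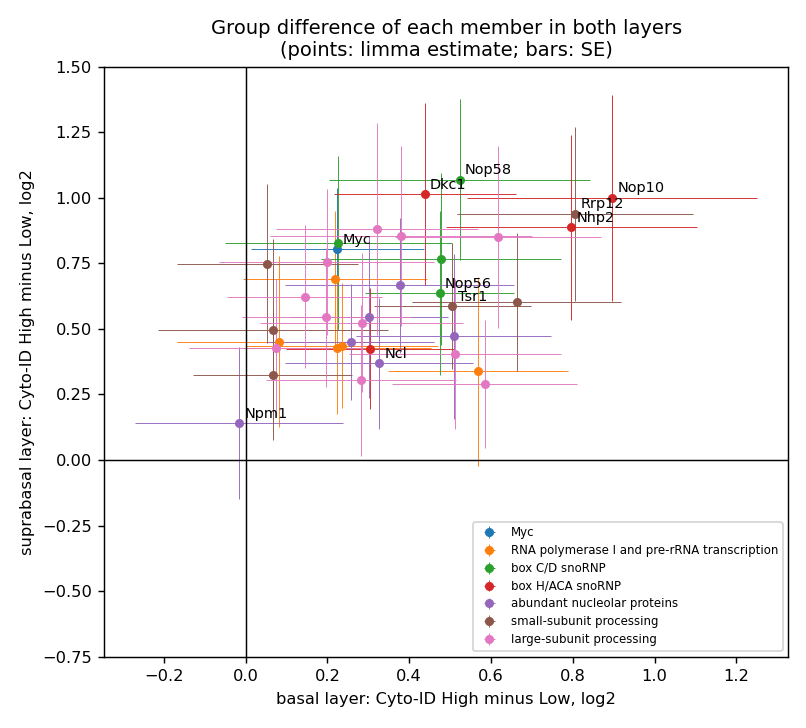
Difference between High and Low of each of the 37 members in basal (horizontal axis) and suprabasal cells (vertical axis), as limma's log2 estimate with its SE as bars, coloured by role. All points lie above 0 on the vertical axis and all but Npm1 to the right of 0, and no member passed the threshold in either layer.

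The last comparison asked whether the layer difference itself differed between the groups. Within the Low libraries alone 29 members were lower in suprabasal cells (median -0.70), beside 23.5% of all genes, and within the High libraries alone 24 were (median -0.42), beside 19.8%, with Nhp2 and Nop10 higher in both. Tested directly, 0 members passed (limma interaction, Benjamini-Hochberg over 12138 genes, of which 0.231% were called, 0.0741% with a positive sign), and 8 had an unadjusted p under 0.05, as had 10.1% of all genes. The estimate was above 0, a less negative or more positive layer difference in High, in 32 of 37 members, with a median of 0.24 against -0.030 over all genes. After TMM scaling the groups did not overlap in this direction in 5 members, Myc, Mybbp1a, Rrp9, Wdr12 and Nip7 (13.5%), against 5.55% of all genes, and in the other direction in 1, Nop2, against 9.11%. On unscaled CPM 9 members did not overlap in the first direction, against 10.1%, and 0 in the other, against 4.35%. Myc had the smallest p of the members, with a difference between the groups of 0.58 ± 0.18 (SE) (limma adjusted p = 0.28). Within Low alone Myc fell by 0.44 (limma adjusted p = 0.026), and within High alone its difference was 0.15 (limma adjusted p = 0.34). Without Low M3, 17 members had an unadjusted p under 0.05 (all genes 14.9%). There were 2 without Low F6 (6.22%), 4 without Low F2 (6.74%) and 4 without High F2 (11.3%). There were 5 without High M3 (7.03%) and 6 without High F6 (7.47%). In each of these fits with a library left out 0 passed the adjusted threshold. With the replicate label as a block 12 had an unadjusted p under 0.05, beside 15.4% of all genes, and the smallest limma adjusted p was 0.078. With layers split by Krt4 the count was 24 (all genes 11.7%) and the median 0.72. It was 15 on plain CPM (10.9%) and 2 in cells with at least 1000 genes (8.21%).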

How the data were processed

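Droplet single-cell libraries of 6 organoid cultures were analysed. The submitters' processing notes name Cell Ranger 6.0.0, Seurat 4 and the mm10 and GRCm38 builds, and the annotation is not given in the sources used here. The values deposited by the authors are natural logs of 1 plus UMIs per 10000 of the cell, as the values themselves show: with the log removed each cell adds up to 10000, and 100% of entries are multiples of the smallest entry of their cell (tolerance 1e-06). UMIs were recovered from these steps, and every deposited barcode held at least 500 UMIs.

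The members and lists were chosen with earlier results of these data known. Cells with at least 500 detected genes entered, CPM were averaged over the cells of each library and layer, divided by unweighted TMM factors (trims of 30% for log ratios and 5% for levels, 1.02 to 1.27 for basal and 0.816 to 0.925 for suprabasal means) and analysed as log2(CPM + 1), which understates changes of low genes. A gene entered a fit if 3 or more of its means reached 1 CPM. The factors above come from all 12 library-by-layer means. They served the fits of the layer difference and the non-overlap counts, over 12138 genes. Fits of High against Low within a layer used factors and genes from the means of that layer alone. limma 3.58.1 (R 4.3.3) with a mean-variance trend and Benjamini-Hochberg adjustment compared layers within library, Cyto-ID High with Low within each layer, and the layer differences between groups. Fits were tested on simulated data in which few genes changed, equally up and down, with no library effect. That does not test the scaling between layers. No doublets were removed. Per-library values are printed for Myc, the most abundant member and the member with the largest layer difference of each role, members not lower in suprabasal cells, and the 3 smallest p between groups in each layer, and from each other list the called genes with the largest layer differences.

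Replicate labels come from the titles. Deviations from group means correlated between same-labelled libraries at 0.71 (F2), 0.61 (M3) and 0.14 (F6) in basal and 0.73, 0.57 and 0.21 in suprabasal cells, all over 0.1, so the labels were taken to pair the libraries; the basal correlation of Cyto-ID Low F2 with Cyto-ID High F6, 0.24, exceeded that of the F6 pair. The main fits between groups did not use this pairing. The fit with this block was an alternative, as were other scalings, pseudocounts, filters, depths, layer boundaries and left-out libraries.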

Additional observations from a re-analysis of the deposited data

Results flagged for a closer look

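Myc is listed because its layer difference had opposite signs in the groups: after TMM scaling it was negative in 3 of 3 Cyto-ID Low libraries and positive in 3 of 3 Cyto-ID High libraries. The difference between the groups was 0.58 ± 0.18 (SE) on the log2 scale (limma interaction, unadjusted p = 0.006, adjusted p = 0.28), so it did not pass the threshold after adjustment over 12138 genes. On plain CPM Myc was lower in suprabasal cells in all 6 libraries, and the difference between the groups was 0.70.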

How the results depend on the processing

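The count of 30 members lower in the suprabasal layer, beside 28.5% of all genes, ranged from 21 to 34. It was 21 with the replicate label as a block in place of the library (all genes 21.3%) and 34 on plain CPM (57.3%). For this comparison the replicate block does not pair the layers of each library, as the main fit does. The count was 24 when layers were split by Krt4 (all genes 25.1%). It was 27 at a Krt13 boundary of 2 (24.4%) and 31 at a boundary of 4 (30.8%). It was 26 with no filter on low values (16.5%) and 27 to 30 without single libraries (25.1 to 27.8%). With the replicate block 0 members were higher, so Nhp2 and Nop10 lost their calls (limma adjusted p = 0.14 and 0.4), and with layers by Krt4 Nop10 lost it too (adjusted p = 0.12). Counts of members that differed between Cyto-ID groups in either layer, or in their layer difference, were 0 under every alternative run, the replicate block included. The Myc difference between groups in the layer difference kept its direction in all of them, from 0.26 at a Krt13 boundary of 2 to 1.19 with layers by Krt4. Some layer differences changed sign: Nop10 to -0.089 on plain CPM, Myc to 0.15 within Cyto-ID High alone, and Bysl to -0.35 on plain CPM, -0.13 with thinned cells, -0.0051 with layers by Krt4, -0.0054 without cycling cells, -0.32 within Cyto-ID Low alone and between -0.065 and 0.19 without single libraries; the cause was not tested. Rrp12 rests on as few as 3 UMIs in a library and layer, and its layer difference was -0.46 with thinned cells, not past the threshold.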

Other observations

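The level of single members in cycling cells, against other cells of the same library and layer, gave a further description on unscaled CPM. Of 37 members, 18 were higher in cycling basal cells in all 6 libraries and 0 lower in all 6, beside 16.1% higher and 8.81% lower of the 12138 genes tested between layers. In suprabasal cells 22 were higher in all 6 and 0 lower, beside 13.9% and 8.26% of all genes. Nop56, Nop58, Fbl, Dkc1, Ncl and Npm1 were higher in both layers, as were Nhp2 and Nop10, whose level was near that of basal cells in the suprabasal layer as a whole. Myc was in neither set. The numbers of cells differed widely, from 21 to 140 cycling suprabasal to 1327 to 2537 other basal cells per library, and cycling cells were defined by UMIs of the same cells, so no test was run.

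The E-box CACGTG was in the RefSeq window of 10 of 18 other textbook Myc targets, 10 of 36 further small-subunit factors, 7 of 41 further large-subunit factors and 1 of 17 genes of snoRNP assembly and the exosome. Among further subunits and factors of RNA polymerase I it was in 3 of 17. Among members it was in 2 of 5 RNA polymerase I genes, 1 of 5 small-subunit factors, 3 of 9 large-subunit factors, 0 of 5 abundant nucleolar proteins, 0 of 3 box C/D and 0 of 4 box H/ACA genes with a window.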
